A study of Mus musculus with 4 samples.

Results

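The 10 genes described here are the p53 family genes Trp53 and Trp63, their inhibitors Mdm2 and Mdm4, and 6 targets that p53 can activate: Cdkn1a, Bax, Bbc3, Pmaip1, Ccng1 and Aen. They were chosen by symbol, not by a cut on measured values, but with earlier results of these data known. All 10 were found among the 23235 gene symbols of the table after its symbols and values had been re-paired. The table holds FPKM, fragment numbers scaled to transcript length and library size, for 4 libraries of polyadenylated RNA from mouse oocytes. Each library was made from 10 oocytes with Smart-seq2, a full-length cDNA method primed with oligo-dT.

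All mice were of C57B6 background and carried Dcaf13fl/fl, the floxed alleles. The control groups carried nothing else, and the deletion groups also carried Gdf9-Cre, a transgene that makes Cre recombinase under the oocyte-specific Gdf9 promoter. The growing oocytes were those of females aged 13.5 to 14.5 days. Fully grown oocytes came from females of 3 weeks (23 days in the sample names), given 5 IU of PMSG, a follicle-stimulating gonadotropin, 48 h earlier. There was 1 library for each of the 4 groups, growing and fully grown oocytes of either genotype. With 1 library per group the spread within a group cannot be measured, and no test was run. Where 4 values follow each other without labels, the order is growing control, growing deletion, then the fully grown control and its deletion counterpart. Age, PMSG and stage cannot be told apart.

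The p53 protein stops the cell cycle or starts cell death when DNA is damaged or when ribosome assembly fails. In unstressed cells Mdm2 marks it for degradation and Mdm4 blocks its activity as a transcription factor. When assembly in the nucleolus is disturbed, free ribosomal proteins such as RPL5 and RPL11 bind MDM2, and p53 accumulates. This response is called nucleolar stress, and it acts largely on the protein, so that mRNA of p53 itself need not change. In oocytes the related protein p63 is the main guard of DNA integrity, and its targets Bbc3 and Pmaip1 mediate oocyte death. DCAF13 is a nucleolar protein of ribosome assembly, so its deletion in oocytes poses the question of whether this pathway responds.

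Promoter sequence was searched for a decamer that is a part of what p53 recognises, close to the start of these genes and whatever their level. RefSeq sequence of GRCm38.p6 was at hand for 8 of the 10 genes, in 13 windows. The decamer consensus was searched in the 250 bases before each start. Only exact matches were counted, so decamers with mismatches were passed over. Windows counted at 0 and the lower-case stretches below may hold such decamers. A full p53 response element holds 2 such decamers, so a single match is not a full element. Sequence outside these windows was not searched. The consensus reads alike on both strands. It was found in 6 of the 8 genes (Trp53, Mdm2, Cdkn1a, Bax, Ccng1 and Aen), where 8.20% of all 27025 genes hold it. By window it was 6 of 13, where 7.13% of all 32851 windows hold it. Windows with a match held 1, except for 2 in the upstream window of Cdkn1a, a number reached by 0.26% of all windows. The downstream window of Cdkn1a held 0. The 4 windows below are printed 5′ to 3′ on the strand of the gene, with decamer matches in capitals. They show the target with the most matches (Cdkn1a, the upstream of its 2 starts, chr17:29090729-29090978, plus strand), a low target with 1 (Ccng1, chr11:40755287-40755536, minus strand), and the 2 genes that lay farthest from control among those at 5 FPKM or more, Bax (chr7:45466899-45467148, minus strand) with 1 and Mdm4 (the upstream of its 2 starts, chr1:133030588-133030837, minus strand) with 0.
Cdkn1a: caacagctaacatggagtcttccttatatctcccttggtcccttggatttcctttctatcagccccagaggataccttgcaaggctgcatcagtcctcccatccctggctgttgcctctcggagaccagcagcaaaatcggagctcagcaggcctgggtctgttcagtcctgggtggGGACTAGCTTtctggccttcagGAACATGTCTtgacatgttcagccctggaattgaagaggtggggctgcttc
Ccng1: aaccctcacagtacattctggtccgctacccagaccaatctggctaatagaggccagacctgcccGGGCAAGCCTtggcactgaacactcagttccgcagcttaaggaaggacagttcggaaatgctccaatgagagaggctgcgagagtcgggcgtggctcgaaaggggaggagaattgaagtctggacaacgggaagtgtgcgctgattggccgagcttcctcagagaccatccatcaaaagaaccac
Bax: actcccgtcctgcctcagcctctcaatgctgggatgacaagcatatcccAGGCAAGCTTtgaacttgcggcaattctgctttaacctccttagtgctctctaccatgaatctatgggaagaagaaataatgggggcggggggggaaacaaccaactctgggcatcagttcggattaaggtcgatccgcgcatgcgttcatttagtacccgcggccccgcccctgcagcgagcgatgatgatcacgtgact
Mdm4: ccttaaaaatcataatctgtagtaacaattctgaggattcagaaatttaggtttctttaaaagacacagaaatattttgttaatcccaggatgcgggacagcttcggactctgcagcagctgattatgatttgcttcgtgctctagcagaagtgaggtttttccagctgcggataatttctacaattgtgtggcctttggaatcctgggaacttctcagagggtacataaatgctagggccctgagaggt
The matches of Cdkn1a lay 73 to 64 and 51 to 42 bases before its upstream start. That of Ccng1 lay 185 to 176 and that of Bax 201 to 192 bases before the start. Further matches were GGACTTGCCC in Trp53, 75 to 66 bases before the start, GAACTTGCCT in Mdm2 (186 to 177) and GGGCTTGTCC in Aen (121 to 112, at the downstream start). The genes with a match spanned the range from 0.472 FPKM (Cdkn1a) to 48.1 FPKM (Bax), and a match is a description of letters, not a bound site.

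Dcaf13, the targeted gene, stood at 40.5% of control in the growing and at 39.95% in the fully grown deletion library. How much of the remaining RNA was intact cannot be read from these values. Summed FPKM per library lay between 649397 and 678437. All 18 oocyte markers, led by H1foo, Dppa3 and Zp3, reached 1 FPKM somewhere, and their median ranged from 1278 to 1640 FPKM over the libraries. The 16 granulosa and cumulus markers summed to between 32.4 FPKM in the growing deletion library and 65.4 in the growing control library, and 8 of them reached 1 FPKM anywhere. Their highest members by mean FPKM were Esr2 (24.6), Cyp19a1 (15.3) and Nr5a2 (4.56). Lower members of the list were Fshr and Amh, with highest values of 1.25 and 0.213 FPKM, and Lhcgr, listed at 0. By the size rule given below, Esr2, Cyp19a1 and Inha were lower in the growing deletion than in the growing control library. The 10 theca and stroma markers, led by Dcn, Star and Col1a1, summed to at most 1.31 FPKM. The 10 blood and immune markers, led by Cd68, Alas2 and Csf1r, summed to at most 3.62, with the 4 globin genes listed at 0. The 6 endothelial markers were not uniformly low, with sums from 13.4 (growing control) to 20.9 FPKM (fully grown deletion). Pecam1 made up most of this, at 11.6, 12.9, 12.3 and 18.7 FPKM, above the minimum of 5 FPKM in every library. Tek and Kdr came next, with highest values of 2.08 and 0.290 FPKM, and Cdh5 and Emcn were listed at 0. The part of other cells in the results below was not tested. In RNA pooled from 10 oocytes, fewer contributing cells and less RNA per cell cannot be told apart.

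Of the 10 genes, 6 reached 5 FPKM in at least 1 library (Trp53, Trp63, Mdm2, Mdm4, Bax and Aen), and 4 stayed under 5 FPKM in every library. By mean FPKM, a scale per length on which genes can be compared, the order was Mdm4, Bax, Mdm2, Trp53, Trp63, Aen, Ccng1, Cdkn1a, Pmaip1 and Bbc3. Mdm4 was the highest of the 10 in every library. Bax lay below Mdm2 and Trp53 in the growing control and above both in the deletion libraries, while Mdm2 and Trp53 were nearly level in the growing deletion library. Trp63 was above Aen in every library, narrowly so in growing oocytes. The 5 targets other than Bax were the lowest of the 10 in control and deletion libraries alike. With 1 library per group, which neighbours in this order differ beyond their spread cannot be told.

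**Figure D1:**
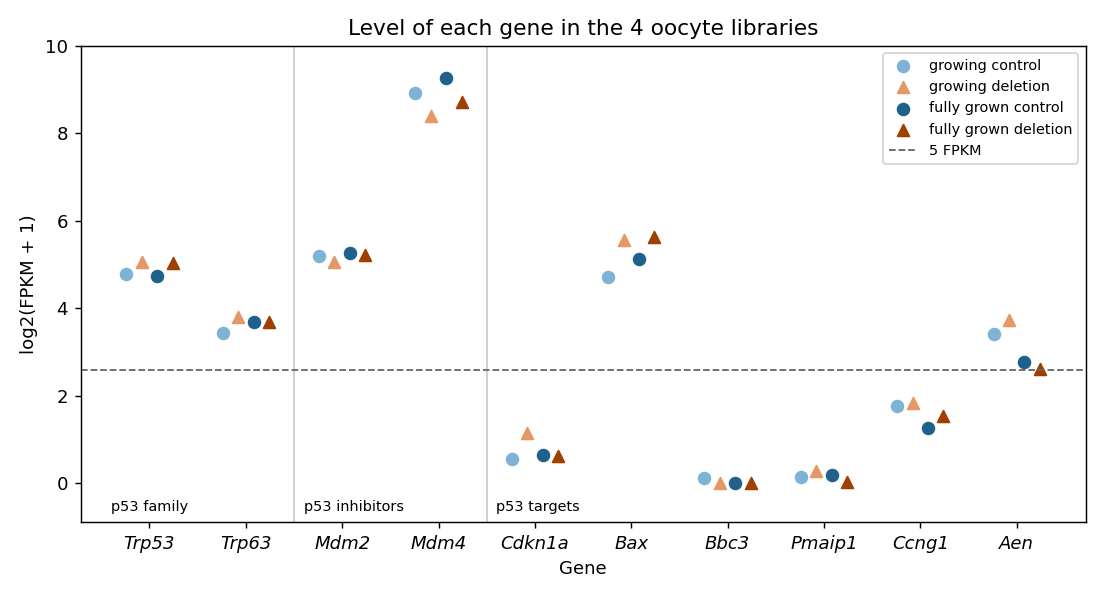
The level of each of the 10 genes in the 4 libraries, as log2(FPKM + 1) on the vertical axis, with circles for control and triangles for deletion, and the genes on the horizontal axis grouped by role. Mdm4 stands far above the rest, and Cdkn1a, Bbc3, Pmaip1 and Ccng1 lie below the dashed line at 5 FPKM in every library.

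Differences between libraries are given as differences in log2(FPKM + 1), on which changes of low genes come out too small. The size rule asked for 5 FPKM in at least 1 of the 2 libraries and for a difference of 1 or more on this scale. This size rule compares 2 libraries, not 2 conditions. In the growing comparison, deletion against control, 0 of the 10 genes were higher and 0 lower, against 2.62% higher and 2.51% lower (5.13% in all) among the 8010 genes that reached 5 FPKM. In the fully grown comparison it was again 0 and 0, against 1.08% higher and 1.09% lower (2.17% in all) among 7413 genes. Only 6 of the 10 genes were at the minimum in either comparison, so 4 of them could not have been counted. The median difference over all 10 was 0.20 in growing and -0.01 in fully grown oocytes, against 0.08 and 0.04 for the genes at the minimum. These sets are unlike, since the 10 include the 4 low genes, whose differences come out too small. The growing median was 0.32 with a pseudocount of 0.1 and -0.08 with the pairing as deposited. The members' differences ranged from -0.51 (Mdm4) to 0.85 (Bax) in growing oocytes and from -0.55 (Mdm4) to 0.50 (Bax) in fully grown oocytes.

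**Figure D2:**
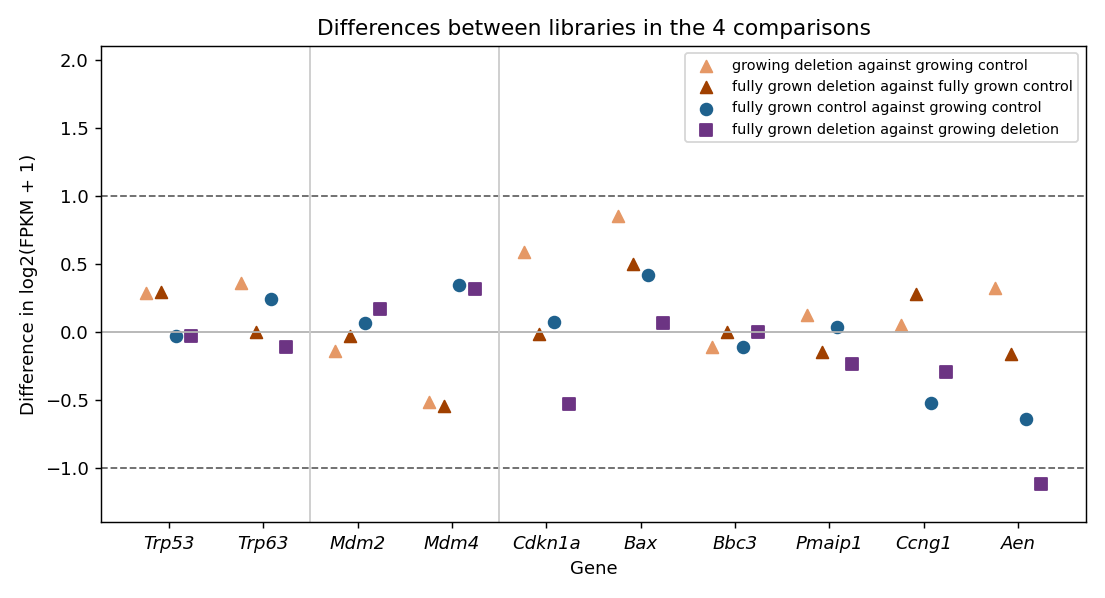
Differences in log2(FPKM + 1) between 2 libraries on the vertical axis, for each of the 10 genes and 4 comparisons, with dashed lines at the size rule of 1 and -1. Aen between fully grown and growing deletion oocytes (-1.12) is the single point past a line, and in the deletion comparisons the highest point is Bax and the lowest Mdm4.

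Trp53 (chr11:69393861-69405375, mm9, plus strand), the gene of p53, stood at 26.4 FPKM in the growing control, 32.3 in the growing deletion, 25.7 in the fully grown control and 31.7 in the fully grown deletion library. The deletion libraries were the higher ones at both stages, and their values did not overlap with those of the controls. The difference was 0.28 in growing and 0.29 in fully grown oocytes, which is 122.7% and 123.1% of control. Differences of this size were common, since 28.5% of the 8010 genes in growing and 22.8% of the 7413 in fully grown oocytes lay at or above them. With the trends across genes with transcript GC content and length taken out, they were 0.19 and 0.17. How reads shared with the processed pseudogene of Trp53 were counted is not given in the sources used here.

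Trp63 (chr16:25802002-25877229, mm9, plus strand), the gene of p63, stood at 9.80 FPKM in the growing control, 12.8 in the growing deletion, 11.8 in the fully grown control and 11.8 in the fully grown deletion library. The growing control was the lowest and the growing deletion library the highest. The differences were 0.36 in growing and 0.00 in fully grown oocytes, where deletion stood at 100.1% of control. With the GC and length trends taken out, they were larger, at 0.52 and 0.10. A value per gene does not tell the long form TAp63, the one known from oocytes, from the shorter forms that lack the activation domain. Trp53 was the more abundant per length, at 2.69, 2.52, 2.18 and 2.69 times Trp63.

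Mdm2 (chr10:117125961-117147772, mm9, minus strand), which encodes the ubiquitin ligase of p53 and is itself a p53 target, varied least of the 6 genes at the minimum. Its level was 35.8 FPKM in the growing control, 32.4 in the growing deletion, 37.4 in the fully grown control and 36.4 in the fully grown deletion library. Its highest value was 1.15 times its lowest. The deletion differences were -0.14 and -0.03, and the control and deletion libraries overlapped, with the fully grown deletion library above the growing control. After rescaling by the median ratio between libraries both deletion libraries lay below both controls. With the GC and length trends taken out, the deletion differences were -0.02 and 0.03.

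Mdm4 (chr1:134886422-134921925, mm9, minus strand), which encodes the partner of MDM2 that silences p53 without degrading it, was the most abundant of the 10. Its level was 483 FPKM in the growing control, 338 in the growing deletion, 615 in the fully grown control and 421 in the fully grown deletion library. The deletion libraries were lower at both stages and did not overlap with the controls. Mdm4 ranked 248, 366, 206 and 324 from the top among the 23235 genes of these libraries.

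The Mdm4 difference was -0.51 in growing oocytes, where the deletion library stood at 69.9% of control, and -0.55 in fully grown oocytes, at 68.4%. It missed the size rule at both stages. Of the genes at the minimum, 8.41% in growing and 5.73% in fully grown oocytes lay at or below it, and 153 of 7188 (2.13%) did so at both stages. With the GC and length trends taken out, the differences were -0.34 and -0.43. Within a library, Mdm4 stood at 13.5 times Mdm2 in the growing control, 10.4 times in the growing deletion, 16.5 times in the fully grown control and 11.5 times in the fully grown deletion. Against Trp53 the same ratios were 18.3, 10.4, 23.9 and 13.3, so that deletion stood at 57.0% of control in growing and 55.6% in fully grown oocytes.

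The assignment of these values to Mdm4 rests on the re-pairing of symbols and values. In the table as deposited, the row of 483, 338, 615 and 421 FPKM carries the symbol Mdm2, and Mdm4 has at most 2.03 FPKM. The re-pairing shifts this stretch of the table by 1 row. With it, the malate dehydrogenase genes Mdh1 and Mdh2, within 5 rows and needed by every cell, stood at 48.6 and 191.9 FPKM in the growing control library and Mdh1b was listed at 0. As deposited, Mdh1 was listed at 0, Mdh2 had 1.74 and Mdh1b 191.9. These neighbours were chosen after their values were seen. Another check used low values, which are lower for longer transcripts. For Mdm2 and Mdm4, in a window of 250 rows on each side, this relation was weak and favoured the deposited pairing (r across 123 genes of -0.12, against -0.06 after re-pairing). For Aen it was strongest 2 rows off. For the other 7 it was strongest at the re-paired position, but 2 of these, Cdkn1a and Ccng1, had not moved, and genes close in the table share most of their window. Either pairing gives this row to an inhibitor of p53. The levels of other moved members rest on the same inference. As deposited, Trp53 had at most 0.679 FPKM and Bax at most 2.37.

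**Figure D3:**
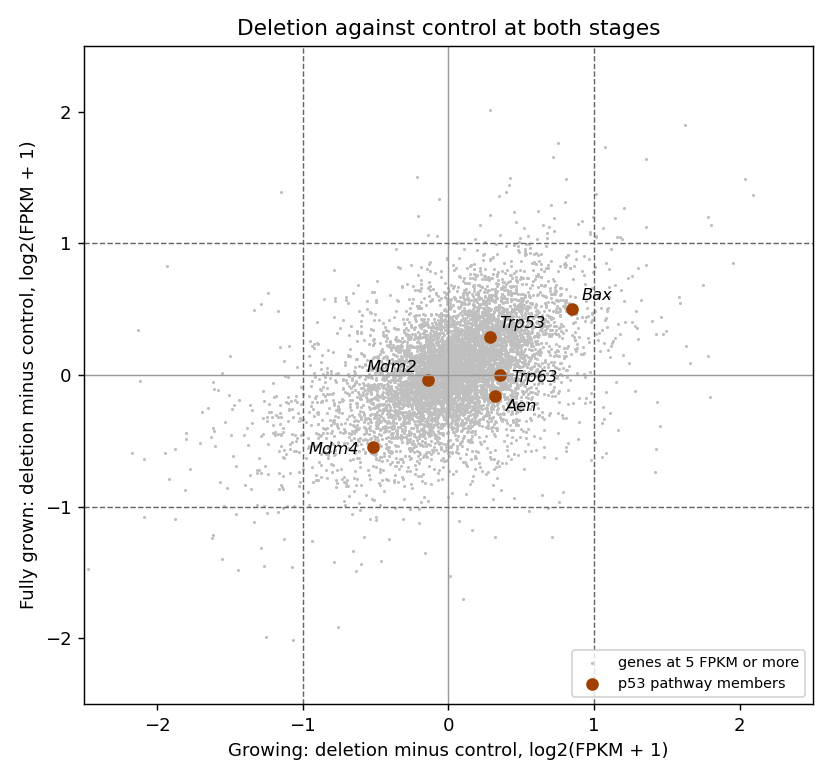
Deletion minus control in log2(FPKM + 1), growing oocytes on the horizontal and fully grown oocytes on the vertical axis, for 7188 genes at 5 FPKM or more in both comparisons (grey, 21 lie beyond the axes) and the 6 members among them (brown), with dashed lines at 1 and -1. Bax lies in the upper right (0.85 and 0.50) and Mdm4 in the lower left (-0.51 and -0.55), both within the cloud and inside the dashed lines.

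Bax (chr7:52717065-52722268, mm9, minus strand) encodes the protein that opens the outer mitochondrial membrane in cell death. Its level was 25.03 FPKM in the growing control, 45.9 in the growing deletion, 33.7 in the fully grown control and 48.1 in the fully grown deletion library. The deletion libraries were higher at both stages and did not overlap with the controls.

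The Bax difference was 0.85 in growing oocytes, at 183.4% of control, and 0.50 in fully grown oocytes, at 142.6%. It was the highest of the 6 genes at the minimum at both stages, yet missed the size rule. With a pseudocount of 0.1, Cdkn1a, under 5 FPKM, lay above Bax in growing oocytes (1.19 against 0.87). Of the genes at the minimum, 3.92% in growing and 9.20% in fully grown oocytes lay at or above it, and 64 of 7188 (0.89%) did so at both stages. Bax transcripts are rich in GC, at 59.2%, above 93.1% of the genes at 5 FPKM or more. Across genes the deletion difference went with GC content (Spearman's rho 0.37 in growing and 0.39 in fully grown oocytes, over 7934 and 7342 genes that share the libraries). With that trend and the one with length removed, Bax differed by 0.53 and 0.29.

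Aen (chr7:86040813-86053719, mm9, plus strand), an exonuclease gene that p53 activates in cell death, stood at 9.61 FPKM in the growing control, 12.3 in the growing deletion, 5.81 in the fully grown control and 5.10 in the fully grown deletion library. Both growing libraries were above both fully grown ones. The deletion differences were 0.32 and -0.16, in opposite directions, and 0.15 and -0.32 with the GC and length trends taken out.

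Ccng1 (chr11:40562054-40568788, mm9, minus strand), the gene of cyclin G1, a p53 target that feeds back on MDM2, was low. Its level was 2.41 FPKM in the growing control, 2.53 in the growing deletion, 1.38 in the fully grown control and 1.88 in the fully grown deletion library, with the growing libraries again the higher ones. Cdkn1a (chr17:29227931-29237667, mm9, plus strand), the gene of the cell cycle inhibitor p21 and the classical readout of p53 activity, stood at 0.472, 1.21, 0.547 and 0.531 FPKM in the same order. The growing deletion library was the highest for Cdkn1a and the other 3 lay close together. Its difference in growing oocytes was 0.58, from values at which no gene was counted.

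Bbc3 (chr7:16894932-16903683, mm9, plus strand), which encodes the killer protein PUMA, stood at 0.0798 FPKM in the growing control library and was listed at 0 in the other 3. Pmaip1 (chr18:66618258-66625212, mm9, plus strand), which encodes NOXA, stood at 0.102, 0.201, 0.1265 and 0.017 FPKM. After re-pairing, neither mediator of p63-driven oocyte death reached 1 FPKM in any library. As deposited, the row of Bbc3 held 9.15, 3.51, 13.3 and 19.0 FPKM in the same order, and that of Pmaip1 at most 0.288. The deposited values hold no read counts, so no detection limit can be given for Bbc3 and Pmaip1. No other gene of the table overlaps the span of any of the 10 genes.

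Growth was compared within each genotype. These comparisons share their libraries with the deletion comparisons, so the values stand side by side without a count of agreement. Here too only 6 of the 10 genes were at the minimum and could be counted. In controls, 0 of the 10 genes were higher and 0 lower in fully grown than in growing oocytes, against 1.11% higher and 3.07% lower (4.18% in all) among 7661 genes. In deletion oocytes 0 were higher and 1 was lower, against 2.7% higher and 8.75% lower (11.4% in all) among 7957 genes. The gene was Aen, at 41.6% of its growing value (-1.12), and 537 of the 7957 genes lay at or below it. In controls Aen stood at 60.5% (-0.64). Without the GC and length trend the Aen difference in deletion oocytes was -0.91, and with a pseudocount of 5 it was -0.77, so that it no longer met the rule.

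Values of other genes with growth follow. Mdm4 stood at 127.2% of its growing value in controls (0.35) and at 124.5% in deletion oocytes (0.31). Bax stood at 134.6% (0.41) and 104.7% (0.06), and Trp53 at 97.5% (-0.04) and 97.9% (-0.03). Ccng1 stood at 57.0% (-0.52) and 74.4% (-0.29), and Cdkn1a at 115.8% (0.07) and 43.9% (-0.53), both from values under 5 FPKM. Trp53 was thus nearly level between stages in either genotype. None of the 10 genes had deletion differences that differed by 1 or more between the stages, where 4.59% of 8235 genes did. This count asked for 5 FPKM in some library, which 6 of the 10 reached. The largest gaps were those of Cdkn1a (-0.60), Aen (-0.48), Trp63 (-0.35) and Bax (-0.35), fully grown minus growing. Cdkn1a could not have been counted. With a pseudocount of 0.1 its deletion differences were 1.19 in growing and -0.04 in fully grown oocytes.

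A further reading, chosen after the data were examined, asked whether both deletion libraries lay on the same side of both control libraries. This was so for Trp53, Trp63 and Bax above and for Mdm4 below. Among 8235 genes at 5 FPKM or more in any library, 21.1% lay above and 13.7% below. For Trp63 the gap was small, since fully grown deletion and fully grown control were nearly level, and it closed after rescaling by the median ratio between libraries. By stage, Mdm2 was higher in both fully grown libraries (background 21.5%) and Aen lower (background 30.8%).

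For Trp53, Trp63 and Mdm2 the genes with the most similar profile over the 4 libraries were sought. The likeness was the largest difference in log2(FPKM + 1) after each gene's mean over the libraries was removed. Nearest to Trp53 were Fgd1 (0.02), Mcm6 (0.03) and Ttc7b (0.03), and 227 of 7361 genes were within 0.1. Nearest to Trp63 were Nhp2l1 (0.02), Cenpw (0.02) and Ube2n (0.02), with 109 genes within 0.1. Nearest to Mdm2 were Rfc1 (0.02), Snrpa1 (0.02) and Dnajc4 (0.02), with 311 genes within 0.1.

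The wider pathway was read from 4 lists. Of 46 other p53 targets found, 18 reached 5 FPKM in some library, and the highest were Rps27l (mean 767 FPKM), a ribosomal protein-like gene, Triap1 (140.3) and Tnfaip8 (74.3). In growing oocytes 1 of the 18 was higher in deletion and 0 lower, beside 2.62% and 2.51% of the 8010 genes at the minimum. It was Sfn, the gene of the checkpoint protein 14-3-3 sigma, at 14.6 FPKM against 6.42 (1.08). In fully grown oocytes none was past the rule, beside 2.17% of 7413 genes, and Sfn stood at 5.17 against 3.61 FPKM. With growth in deletion oocytes 1 of the 18 was lower, again Sfn (-1.34), beside 8.75% of 7957 genes. In controls Sfn stood at -0.69. The list's median difference, over all 46 genes, was 0.06 in growing and 0.00 in fully grown deletion oocytes. Most of the 46 were under 5 FPKM, where differences come out too small. The medians of 0.08 and 0.04 for genes at the minimum are therefore not a like comparison.

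Of the 23 genes of nucleolar stress sensing, 21 reached 5 FPKM, and the highest were the ribosomal protein genes Rps14 (mean 1148 FPKM) and Rpl11 (988) and the nucleolar chaperone gene Npm1 (914). In growing oocytes 1 of the 21 was higher in deletion and 0 lower, beside the same 2.62% and 2.51% of 8010 genes. It was Mybbp1a, which encodes a nucleolar protein that aids acetylation of p53 when the nucleolus is disturbed, at 14.1 FPKM against 5.84 (1.14). In fully grown oocytes it stood at 6.65 against 3.77 (0.68), and none of the list was past the rule, beside 2.17% of 7413 genes.

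Rpl11, whose protein binds MDM2, stood at 866 FPKM in the growing control, 1144 in the growing deletion, 877 in the fully grown control and 1065 in the fully grown deletion library. Rpl5, its partner, stood at 651, 667, 668 and 609 FPKM in the same order. Rpl11 was thus higher in both deletion libraries than in both controls, as were 21.1% of 8235 genes at 5 FPKM or more in any library. Rpl5, named here after its values were seen, overlapped. The list's median difference was 0.23 and 0.11. In 21 of 23 genes the growing deletion value was above control, where 58.5% of the genes at the minimum were, and in fully grown oocytes this was so in 15 of 23, where 55.0% were. The 23 include Gnl3l and Cdkn2a, under 5 FPKM in every library. Median-ratio rescaling shifts the growing comparison by -0.049, more than the differences of Ddx5 (0.012), Nol12 (0.026) and Rpl5 (0.035). The list was not recounted after rescaling or without the GC and length trends. With growth in deletion oocytes 2 of the 21 were lower and 0 higher, beside 8.75% and 2.7% of 7957 genes at the minimum. They were Gltscr2 (-1.95), which encodes the nucleolar anchor of RPL11, and Znhit3 (-1.09), of snoRNP assembly. In controls these 2 stood at -0.81 and -0.96.

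**Figure D4:**
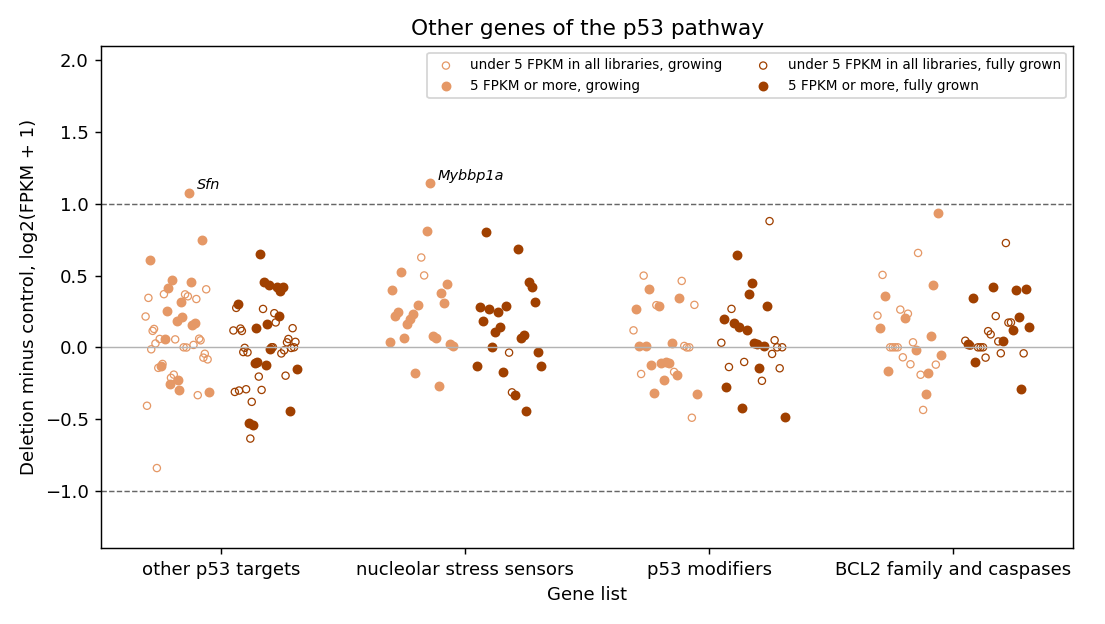
Deletion minus control in log2(FPKM + 1) for each gene of 4 lists of the wider pathway, growing oocytes in light and fully grown oocytes in dark brown, filled where the gene reached 5 FPKM in some library. Sfn (1.08) and Mybbp1a (1.14) in growing oocytes are the points past the dashed lines at 1 and -1, and most genes of nucleolar stress sensing lie above 0 in growing oocytes.

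Of 26 kinases and other modifiers of p53 found, 15 reached 5 FPKM, led by Csnk1e (mean 129.7 FPKM) and Chek1 (124.5), both kinase genes, and Usp7 (68.4), which encodes a deubiquitinase of MDM2 and p53. None was past the rule with deletion at either stage, beside 5.13% of 8010 genes in growing and 2.17% of 7413 in fully grown oocytes. Chek2, whose kinase activates p63 in oocytes, stood at 2.61, 2.18, 1.19 and 0.987 FPKM, and was named after its values were seen. Sirt1, a deacetylase gene of p53, was lower with growth in controls (14.3 to 5.66 FPKM, -1.20) and in deletion oocytes (14.6 to 5.02, -1.37). It was 1 of 15 in either genotype, beside 3.07% of 7661 genes lower in controls and 8.75% of 7957 in deletion oocytes.

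Of 26 BCL2 family and caspase genes, 11 reached 5 FPKM, and none was past the rule with deletion at either stage. Beside them stand 5.13% of 8010 genes in growing and 2.17% of 7413 in fully grown oocytes. Bcl2l10, a BCL2 family gene typical of oocytes, was the highest (mean 3229 FPKM), followed by the anti-apoptotic Bcl2l1 (53.6) and by cytochrome c, Cycs (51.3). Per length, Bcl2l10 stood at 127 times Bax in the growing control, 61.6 times in the growing deletion, 106 times in the fully grown control and 69.5 times in the fully grown deletion library. Bax stood at 0.491, 0.817, 0.634 and 0.891 times Bcl2l1. Both ratios come from values with the GC and length trends left in, and rest on the re-pairing. Without these trends the deletion differences of Bax were 0.53 in growing and 0.29 in fully grown oocytes. With growth Mcl1, an anti-apoptotic gene, was lower in controls (-1.06) and deletion oocytes (-1.07), and the mitochondrial nuclease gene Endog in deletion oocytes (-1.39, and -0.86 in controls). That made 1 of 11 lower in controls and 2 of 11 in deletion oocytes, beside 3.07% of 7661 and 8.75% of 7957 genes.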

How the data were processed

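Values were FPKM as deposited by the authors, 1 library per group, and the 4 per-sample tables were identical to the series table. Build mm9 and the tools Cufflinks 2.2.1, TopHat2 2.0.11, Bowtie2 2.1.0 and CASAVA 1.8 are listed in the submitters' processing notes. Not given in the sources used here: gene models, strand and the handling of multiply mapped reads. Symbols were sorted in byte order and joined to the value rows in file order, an inference from the values. Depth is unknown. Ratios among low values put the other libraries at 1.01 to 1.11 times the growing control. With Python 3.11.15 (pandas 2.3.3, numpy 2.4.6, scipy 1.17.1), differences in log2(FPKM + 1) and the size rule were computed. Their code was checked on simulated data without noise, built with the same re-pairing rule. Such a check cannot show how the size rule fares with noise or whether the re-pairing is right. Transcript GC content and length came from GENCODE, matched for 99.1% of genes at 5 FPKM or more, and coordinates from the table, with starts counted from 1. The members and lists were chosen with earlier results of these data known. Named were the members, list genes past the rule, the 3 highest of each list and the 3 nearest profiles.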

Additional observations from a re-analysis of the deposited data

How the results depend on the processing

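Counts of the 10 genes past the size rule were recomputed with pseudocounts of 0.1 and 5, with no FPKM minimum and one of 10, after median-ratio rescaling, with the pairing as deposited and without the GC and length trend. In the growth comparison of deletion oocytes the count of 1 became 0 with a pseudocount of 5 and without the trend. With the pairing as deposited, 1 gene (Bbc3, -1.17) was past the rule in the growing deletion comparison, and 2 genes (Trp63 and Bbc3) differed between stages, in place of 0. Counted with genotypes apart, alternatives added after the data were examined gave 2 genes below control (Mdm2 and Mdm4) after rescaling, in place of 1, and 0 above with the pairing as deposited, in place of 3. The other counts were within 1.5 times, but with the pairing as deposited the 1 gene of the growth comparison in deletion oocytes was Bbc3, higher by 2.15, and no longer Aen (0.00). That pairing also moved the median difference of the 10 genes from 0.20 to -0.08 in growing and from -0.01 to 0.18 in fully grown deletion oocytes. Rescaling moved no single difference by over 0.1. No paired analysis was possible because each group holds 1 replicate number, and for the same reason no replicate could be left out. A fit of genotype and stage as additive terms over the 4 libraries, which would treat the stages as pairs, was not run. Without read counts, the precision of low values such as those of Bbc3 and Pmaip1 is unknown.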

Other observations

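Death genes outside the 10 were looked at after their values were seen. The initiator caspase gene Casp9 stood at 1.89 FPKM in the growing control, 3.56 in the growing deletion, 1.06 in the fully grown control and 2.41 in the fully grown deletion library, with both deletion libraries above both controls at levels under 5 FPKM. Of the 8235 genes at 5 FPKM or more in any library, which leave Casp9 out, 21.1% lay above both controls in this way. Endog stood at 17.5, 34.5, 9.23 and 12.6 FPKM in the same order, higher in deletion at each stage but overlapping across stages. Bak1, the partner of Bax, was listed at 0 in 3 libraries and at 0.051 in the fully grown control.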
